A study of Mus musculus with 2 samples.

Results

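The nuclei described here are endothelial nuclei from mouse aorta (ascending part and arch) that were chosen for UMIs (unique molecular identifiers, 1 per captured RNA molecule) of 5 genes: Nrg1, Emcn, Bmp6, Edn1 and Otogl. A barcode was a member if it had at least 300 detected genes, at least 3 UMIs over the endothelial genes Ptprb, Pecam1, Cdh5 and Cyyr1, more of these than of the smooth muscle genes Myh11, Acta2 and Lmod1, and no UMI of the lymphatic gene Prox1. It also needed at least 3 UMIs over the 5 genes (the A sum), and more of these than over Ankrd33b, Chn2, Kirrel3, Fgfr3 and Syt7 (the B sum) and than over Chrm3, Cyp4b1, Gkn3, Enpp6 and Selp (the C sum). The rule took 3507 nuclei of the Female library and 3900 of the Male library, 7407 of 39531 barcodes in all. The same endothelial limits took 12387 barcodes, so 4980 other endothelial nuclei, 1814 Female and 3166 Male, served for comparison. The members were chosen from their own RNA counts, and each sex has 1 library, so all values below are descriptions and no p-value was computed.

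The mice carried Wnt1-Cre and the Rosa26-mTmG reporter, in both libraries alike. In these mice Cre is made under the Wnt1 promoter, so recombination marks cells of neural crest descent, and the reporter gives tdTomato before recombination and GFP after it. Aortic tissue was pooled within each sex, giving 1 Female and 1 Male library. The labels mention 6 mice without saying whether that is per sex, split each pool into 2 technical replicates that were not analysed apart here, and give no age. Since nuclei were sequenced, the values are nuclear RNA and not whole-cell RNA.

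Endothelial cells line the vessel wall and signal to the smooth muscle beneath them. Neuregulin 1 (Nrg1) is a ligand of ErbB receptors, BMP6 and BMP4 are bone morphogenetic proteins that signal through type I and type II receptors to SMAD proteins, and endothelin 1 (Edn1) is a peptide that constricts smooth muscle. Endomucin (Emcn) is a sialoglycoprotein of the endothelial surface, thrombospondin 1 (Thbs1) a secreted matricellular protein, and Otogl encodes otogelin-like, known from the inner ear.

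The label given to these nuclei names Nrg1 and Emcn, but most UMIs of the A sum were of Bmp6. The members are called Bmp6-led nuclei here for this make-up of the sum alone. Bmp6 was not particular to them: it was found in 62.5% of Female and 52.7% of Male other endothelial nuclei, against 1.98% and 2.34% for Nrg1. Of the UMIs that made up the A sum, Bmp6 supplied 78.3% for Female and 73.2% for Male nuclei, which is arithmetic of the rule and no comparison of expression between genes of different length. Bmp6 alone would have met the minimum of 3 UMIs in 97.3% of Female and 95.8% of Male members. An Nrg1 UMI was found in 21.8% of Female members (763 of 3507, 95% exact Clopper-Pearson interval 20.4% to 23.2%) and in 30.1% of Male members (1172 of 3900, 28.6% to 31.5%). An Emcn UMI was found in 46.3% of Female and 46.0% of Male members. Both genes together were found in 15.5% of Female and 20.3% of Male members. A single gene of the 5 was detected in 20.4% and 20.6% of members, and all 5 in 5.62% and 6.87%, in the Female and the Male library. A rule that left Bmp6 out of the A sum, chosen after these values were seen, kept 1257 Female and 1454 Male nuclei. All had to be members, since leaving out a gene can only lower the A sum.

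Levels of endothelial genes that the rule did not use are given as a description. Members were picked for endothelial UMIs and the smooth muscle nuclei for having none, so their contrast is no independent check of identity. The von Willebrand factor gene Vwf stood at 739.5 counts per 1000000 UMIs (CPM) in Female and 832.6 CPM in Male members, against 10.7 and 19.2 CPM in smooth muscle nuclei, which were taken as barcodes with at least 3 UMIs of the smooth muscle genes and none of the endothelial ones. Egfl7, an endothelial secreted protein, stood at 640.5 and 648.4 CPM in members, against 10.1 and 16.0 CPM in smooth muscle nuclei. The receptor tyrosine kinase gene Tie1 stood at 377.9 and 356.8 CPM in members, against 3.55 and 6.02 CPM in smooth muscle nuclei. Over all genes tested, 0.795% were at least 2-fold higher in members than in other endothelial nuclei in both libraries and 1.59% lower. Among 16 general endothelial genes, 14 passed the filter on low values. None of the 14 was at least 2-fold higher in members. By any size, 5 were higher and 8 lower in both libraries, beside 40.0% (Female) and 45.3% (Male) of all genes higher. In both libraries 2 were at least 2-fold lower. These were Cldn5, a tight junction protein, at 83.3 CPM in Female and 118.3 CPM in Male members against 217.6 and 286.5 CPM in other endothelial nuclei, and Podxl, a surface sialomucin, at 142.4 and 146.4 CPM against 295.4 and 307.7 CPM.

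The libraries held 79294181 UMIs in Female and 77989549 UMIs in Male barcodes, of which members held 13340615 and 15455860. The median member had 3309 (Female) and 3402.5 (Male) UMIs, against 2985 and 2867 UMIs in other endothelial nuclei. A doublet caller marked 5.93% and 8.95% of members, against 6.17% and 8.72% of other endothelial nuclei, and the marked nuclei were kept. Of all barcode sequences, 4287 occurred in both libraries, and 22.2% of Female and 20.4% of Male members carried one. The sexes were told apart by their own genes in members, with 8737 Xist UMIs for Female and 20 for Male nuclei, and 2 against 2373 UMIs of the Y-linked gene Uty.

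Gene positions follow the GRCm38 annotation. Bmp6 spans chromosome 13, 38345107 to 38500302, on the forward strand, and overlaps the protein-coding gene Txndc5 and the gene model 4930579J19Rik on the other strand. Nrg1 spans chromosome 8, 31814551 to 32884029, on the reverse strand, and overlaps Gm22140 and Gm26578. Emcn spans chromosome 3, 137341067 to 137432185, on the forward strand. Edn1 spans chromosome 13, 42301476 to 42307990, on the forward strand, and overlaps Gm47118. Otogl spans chromosome 10, 107760531 to 107912134, on the reverse strand. Thbs1 spans chromosome 2, 118111876 to 118127133, on the forward strand, and overlaps Gm29233. Bmp4 spans chromosome 14, 46383520 to 46390669, on the reverse strand, and overlaps the gene models Gm15217 and Gm15222. The sources used here do not say whether strand was used in counting, so reads of overlapping genes could not be told apart.

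The promoter windows of Bmp6, Emcn and Edn1, the 3 of the 5 A sum genes with a RefSeq window (GRCm38.p6, 250 bases before to 50 after RefSeq's gene start), are printed because these genes carried most of the A sum. RefSeq starts Bmp6 further downstream than the annotation used for the positions above, so its window lies inside that span. Capitals mark matches to the GATA factor motif, searched on both strands as the word AGATAA, the word AGATAG, the word TGATAA and the word TGATAG, since Gata6, Gata2 and Gata3 RNA was measured in members.
Bmp6, chr13:38345466-38345765, forward strand: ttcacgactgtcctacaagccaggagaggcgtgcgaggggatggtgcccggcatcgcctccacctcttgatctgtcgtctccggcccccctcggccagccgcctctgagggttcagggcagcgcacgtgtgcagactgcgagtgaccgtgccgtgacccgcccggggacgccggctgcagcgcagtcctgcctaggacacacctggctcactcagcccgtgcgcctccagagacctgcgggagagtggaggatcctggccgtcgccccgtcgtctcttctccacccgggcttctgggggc
Emcn, chr3:137340828-137341127, forward strand: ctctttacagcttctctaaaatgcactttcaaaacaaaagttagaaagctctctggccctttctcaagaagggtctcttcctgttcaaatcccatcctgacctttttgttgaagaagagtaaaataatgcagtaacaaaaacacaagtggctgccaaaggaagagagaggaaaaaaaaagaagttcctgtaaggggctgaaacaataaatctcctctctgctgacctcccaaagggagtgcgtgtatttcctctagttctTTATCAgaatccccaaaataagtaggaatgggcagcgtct
Edn1, chr13:42301226-42301525, forward strand: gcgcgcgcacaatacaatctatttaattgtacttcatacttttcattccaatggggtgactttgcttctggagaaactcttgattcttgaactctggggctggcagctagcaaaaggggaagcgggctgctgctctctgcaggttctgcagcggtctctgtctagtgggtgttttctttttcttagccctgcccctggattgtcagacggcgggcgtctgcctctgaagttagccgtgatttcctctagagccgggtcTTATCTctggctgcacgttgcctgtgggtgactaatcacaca
The Emcn window held 1 match, which starts at base 261 counted from the 5′ end of the window, and the Edn1 window held 1 match, which starts at base 259. These letters were not in the Bmp6 window. Of 32851 RefSeq promoter windows, 29.8% held at least 1 match, and nothing about a factor is read from these matches. Gata6, a zinc finger transcription factor, stood at 611.5 CPM in Female and 525.0 CPM in Male members, against 440.2 and 340.7 CPM in other endothelial nuclei, which is below the 2-fold size used for calls. Gata2 stood at 130.4 and 124.4 CPM in members, against 130.6 and 125.1 CPM in other endothelial nuclei.

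The levels of the 5 rule genes describe what the rule selected. Bmp6 stood at 6202 CPM in Female and 5095 CPM in Male members, against 970.1 and 666.9 CPM in other endothelial nuclei. It was also the A sum gene found most widely outside the members, in 62.5% of Female and 52.7% of Male other endothelial nuclei. Among these, it was found in 77.9% and 80.2% of C sum nuclei and in 66.0% and 51.6% of B sum nuclei. Smooth muscle nuclei had a Bmp6 UMI in 7.80% and 7.59%, but they were taken with no UMI of the endothelial genes. The part of free RNA in their Bmp6 was not tested. Nrg1 stood at 437.5 and 657.8 CPM in members, against 13.1 and 26.1 CPM in other endothelial nuclei. It was found in 1.98% and 2.34% of other endothelial nuclei and in 0.712% and 0.830% of smooth muscle nuclei. Both libraries placed Nrg1 higher in members than in any other group of nuclei shown in the plot of marker levels. Edn1 stood at 635.8 and 585.8 CPM in members, against 90.9 and 63.4 CPM in other endothelial nuclei. Emcn stood at 485.4 and 482.9 CPM in members, against 121.0 and 115.6 CPM in other endothelial nuclei, and the 2 libraries lay close together. Otogl stood at 160.7 and 139.4 CPM in members, against 33.6 and 18.4 CPM in other endothelial nuclei. With each nucleus thinned to 1000 UMIs, leaving out 77 Female and 149 Male members that were shallower, Nrg1 was found in 14.5% of Female and 21.2% of Male members, against 0.759% and 1.07% of other endothelial nuclei.

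**Figure D1:**
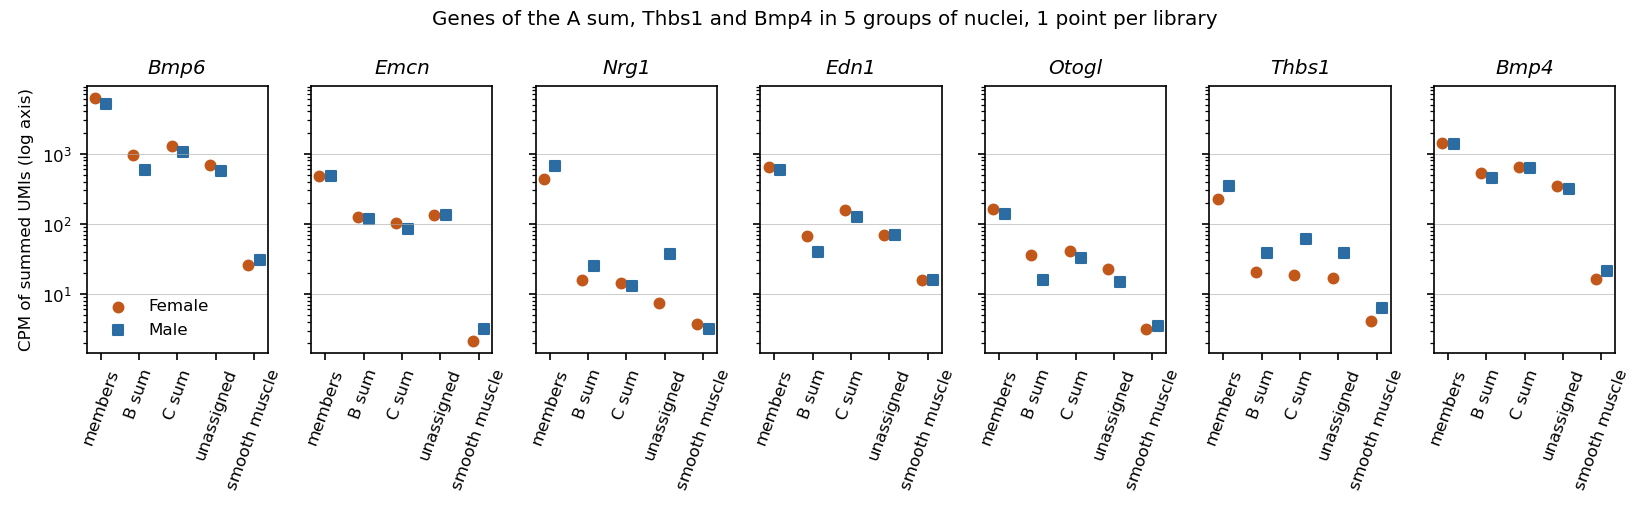
CPM of summed UMIs (log axis) of 7 genes in members, in nuclei assigned to the B or the C sum, in unassigned endothelial nuclei and in smooth muscle nuclei; each circle is the Female and each square the Male library, and there is no error bar because each library gives 1 sum. Members lie above all other groups for all 7 genes in both libraries, Bmp6 at 6202 and 5095 CPM and Nrg1 at 437.5 and 657.8 CPM.

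The limit of 3 UMIs on the A sum lay among nuclei with less Bmp6 than members as a whole, which the rule fixed because Bmp6 is part of that sum. Nuclei with an A sum of 3, just inside, numbered 66 (Female) and 106 (Male) and had Bmp6 at 1336 and 1310 CPM. Nuclei that met every other limit with an A sum of 2, just outside, numbered 49 and 74 and had Bmp6 at 967.0 and 720.1 CPM. Nrg1 in nuclei just inside stood at 16.7 CPM (2 UMIs) in the Female and 38.4 CPM (7 UMIs) in the Male library. Just outside it stood at 73.4 CPM (6 UMIs) and 12.5 CPM (2 UMIs), and so few UMIs cannot rank the 2 sides. The median A sum of a member was 22 for Female and 20 for Male nuclei.

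The Bmp6-led nuclei were not uniform. Clustered alone, they split into 12 sub-clusters, numbered by size from 0, whose leading genes are given as a description because the same counts made the clusters. Nrg1 was concentrated in sub-clusters 2 and 5, which held 22.9% of Female and 20.6% of Male members and 66.6% and 58.2% of the Nrg1 UMIs of the members. They also held 58.7% of Female and 52.8% of Male nuclei with UMIs of both Nrg1 and Emcn. Nuclei with UMIs of both genes occurred in each of the 12 sub-clusters, and sub-cluster 1 held 20.6% of the Female and 17.7% of the Male ones.

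Sub-cluster 2 (549 Female and 597 Male nuclei) had Gdf6, a BMP family ligand, and Nrg1 among its leading genes. Nrg1 stood at 1125 CPM in its Female and 1865 CPM in its Male nuclei and was found in 47.4% and 72.2% of them. Gdf6 stood at 119.1 and 167.5 CPM. Thbs1 was highest here among sub-clusters 0 to 5, at 513.3 and 781.7 CPM, and so was Bmp4, at 2118 and 2218 CPM. The ErbB receptor gene Erbb4 stood at 363.1 and 247.8 CPM in sub-cluster 2, the highest of sub-clusters 0 to 5, while Nrg1 was higher in sub-cluster 5. Smooth muscle nuclei had Erbb4 at 907.7 and 829.2 CPM. Klf2, a transcription factor known to respond to shear stress, stood at 26.2 and 25.3 CPM in sub-cluster 2, the lowest of sub-clusters 0 to 5.

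Sub-cluster 5 (255 Female and 206 Male nuclei) was led by Gata4 and Tbx20, transcription factors known from the heart and its valves, and Chrm2, a muscarinic acetylcholine receptor. Gata4 stood at 335.4 CPM in its Female and 311.2 CPM in its Male nuclei, and at 17.98 CPM or less in each library of sub-clusters 0 to 4. Tbx20 stood at 169.3 and 164.1 CPM, and at 17.0 CPM or less in sub-clusters 0 to 4. Nrg1 stood at 1707 and 2055 CPM and was found in 50.2% and 51.5% of nuclei. Emcn stood at 1773 and 1577 CPM and was found in 87.8% and 86.9% of nuclei. Endoglin (Eng), an accessory receptor for BMP and TGF-β ligands, stood at 1206 and 1017 CPM, and the netrin receptor gene Unc5d, which led sub-cluster 2 with others, at 1.09 and 1.30 CPM. Gata4 was not restricted to members, since nuclei of the B sum had it at 69.7 CPM for Female and 49.0 CPM for Male nuclei. Gata4 and Tbx20 belong to a list of 9 endocardial genes. Of the others on it, Hand2 stood at 22.8 and 58.6 CPM in sub-cluster 5 and Adgrg6 at 23.9 and 18.2 CPM, both the highest of sub-clusters 0 to 5. Npr3 stood at 56.4 and 85.9 CPM in sub-cluster 5 and at 72.4 and 52.4 CPM in sub-cluster 2. Nfatc1, at 111.8 and 102.9 CPM, and Cgnl1, at 1378 and 1638 CPM, lay within the range of sub-clusters 0 to 4. Gata6 stood at 533.0 and 517.0 CPM, and Gata5 had 0 UMIs, which allows up to 3 UMIs in each library. Lum, from the list of fibroblast markers, was also among the 10 leading genes. Over both libraries it stood at 65.1 CPM in sub-cluster 5, against 7.93 CPM in the other members. No cell type name is given to sub-cluster 5.

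Sub-cluster 1 (912 Female and 801 Male nuclei) was led by Slc26a4, an anion exchanger, and by the homeobox and paired box genes Hoxa9, Nkx2-3, Hoxb6 and Pax9. Hoxa9 stood at 47.8 CPM in Female and 58.4 CPM in Male nuclei, and Nkx2-3 at 42.5 and 48.8 CPM. Pax9 stood at 62.2 and 74.4 CPM, but it overlaps Slc25a21, another leading gene, and their reads could not be told apart without strand. Slc26a4 differed between libraries, at 41.0 CPM in Female and 10.3 CPM in Male nuclei. Hdac9, a class IIa histone deacetylase, stood at 798.8 and 692.4 CPM, the highest of sub-clusters 0 to 5. Nrg1 stood at 276.9 and 625.8 CPM.

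Sub-cluster 0 (968 Female and 970 Male nuclei) was led by Myo16 and Slc4a8 and had Tbx1, a T-box transcription factor of pharyngeal development, at 183.6 and 181.7 CPM. Its Kirrel3, a gene of the B sum, stood at 735.5 and 741.2 CPM, against 1147 and 1020 CPM in other endothelial nuclei. Nrg1 was found in 11.2% and 18.1% of its nuclei. Sub-cluster 4 (271 Female and 378 Male nuclei) was led by the long RNA Mannr, by Sema3g, a semaphorin of arteries, and by Hbegf, an ErbB ligand. Hbegf stood at 92.4 and 57.7 CPM and Sema3g at 53.7 and 68.7 CPM. Hoxb6 stood at 102.8 and 81.7 CPM in sub-cluster 4 and at 59.1 and 55.9 CPM in sub-cluster 1, against 6.11 CPM or less in each library of sub-clusters 0, 2, 3 and 5. Nrg1 was lowest in sub-cluster 4, at 55.6 and 110.9 CPM, while Edn1 stood at 885.2 and 844.2 CPM.

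The remaining sub-clusters bear on purity. Sub-cluster 3 (268 Female and 496 Male nuclei) had a median of 1663.5 and 1634 UMIs, was led by Cmss1, Aqp1, Lars2 and Gphn, and carried barcodes shared between libraries in 39.9% and 39.3% of its nuclei. With a coarser clustering, 588 of its nuclei joined sub-clusters 0 and 2, which then formed 1 cluster. Sub-clusters 6 to 10 together held 7.21% of Female and 11.1% of Male members and were led by genes of fibroblasts, smooth muscle, adipocytes, macrophages and mesothelium, such as Scara5, Carmn, Plin1, F13a1 and Muc16. The doublet caller marked between 66.7% and 89.5% of the nuclei of each of these per library, and they are left undescribed. Sub-cluster 11 (31 Female and 21 Male nuclei) had the capillary genes Cd36 at 2695 and 2899 CPM and Fabp4 at 3246 and 2408 CPM, and Kdr at 711.0 and 315.6 CPM.

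**Figure D2:**
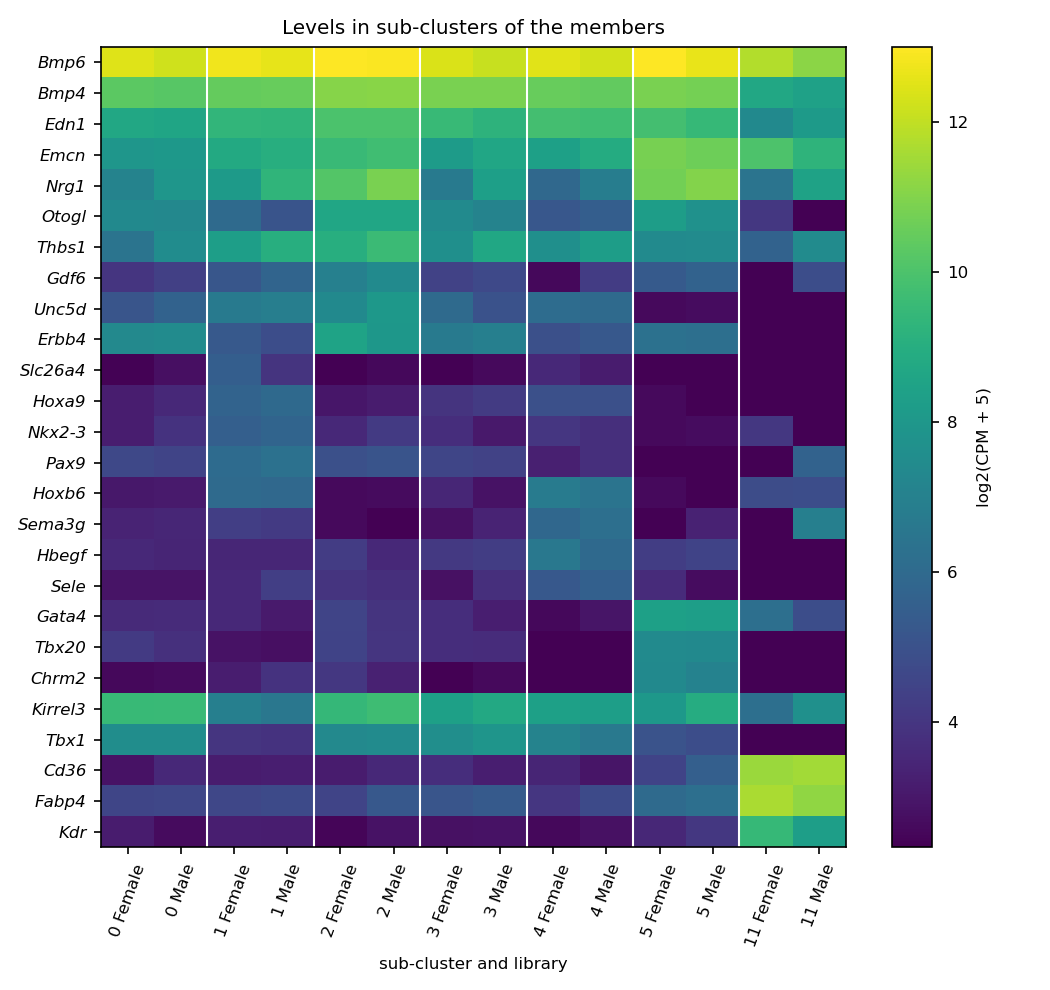
Colour scale of log2(CPM + 5) for 26 genes (rows) in sub-clusters 0 to 5 and 11 of the members, each with its Female column left of its Male column. Nrg1 and Emcn are highest in sub-clusters 2 and 5 among sub-clusters 0 to 5, Gata4, Tbx20 and Chrm2 stand out in sub-cluster 5, Hoxb6 in sub-clusters 1 and 4, and Bmp6 is high in each of sub-clusters 0 to 5.

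Set against the other endothelial nuclei within each library, the genes outside the rule that were furthest above in the Bmp6-led nuclei included Thbs1 and the BMP family ligand Gdf6. Log2 ratios were taken of CPM with 5 CPM added to each side, over 8048 genes with at least 50 UMIs and at least 20 CPM on either side, and a gene was called at 2-fold or more the same way in both libraries. In the higher direction 64 genes were called, 0.795% of those tested, among them the 5 genes of the A sum, and in the lower direction 128, 1.59% of those tested, among them the 5 genes of the B sum. The median over all genes was -0.04 for Female and -0.02 for Male nuclei, and 40.0% and 45.3% of all genes lay above 0. Since the same counts chose the members, nothing is read from these counts beyond their size.

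Thbs1 was not in the rule, but Thbs1 and Bmp4 were among the markers given for these nuclei beforehand. Their higher levels are therefore a description and no independent support. Thbs1 stood at 227.7 CPM in Female and 348.0 CPM in Male members, against 19.0 and 42.4 CPM in other endothelial nuclei. Its plain log2 ratio, with nothing added, was 3.58 (95% exact interval 3.31 to 3.86, counting error only) for Female and 3.04 (2.90 to 3.18) for Male nuclei. It was found in 27.9% and 40.0% of members, against 4.30% and 8.53% of other endothelial nuclei and 1.17% and 1.52% of smooth muscle nuclei. Both libraries put Thbs1 far above its level in the B and C sum nuclei, where it lay between 18.4 and 60.2 CPM. Gdf6 stood at 34.5 CPM in Female and 48.1 CPM in Male members, against 2.08 and 3.30 CPM in other endothelial nuclei, with a log2 ratio of 2.48 and 2.68.

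Other genes outside the rule that were higher in members fell into several roles. Frzb, a secreted Wnt inhibitor, stood at 65.2 CPM in Female and 94.8 CPM in Male members, against 11.2 and 18.7 CPM in other endothelial nuclei. Unc5d, of the netrin receptor family, stood at 69.4 and 84.3 CPM, against 14.7 and 11.8 CPM. The comparison group was uneven for Unc5d, with 47.9 and 39.6 CPM in C sum nuclei and 1.66 and 2.52 CPM in B sum nuclei. Cyr61 (Ccn1), a matricellular protein, stood at 265.8 and 250.2 CPM in members, against 72.3 and 67.8 CPM in other endothelial nuclei. Ahsg, which encodes the plasma protein fetuin-A, stood at 51.6 and 89.4 CPM, against 11.4 and 17.6 CPM. The zinc finger gene Glis3 stood at 442.9 and 375.2 CPM, against 136.4 and 131.4 CPM. The other genes named by rank in this direction were Coch, Slc25a21, Bmp4, Arhgap28, C1qtnf7, Hdac9 and Plscr2, with log2 ratios between 1.45 and 2.02. Hdac9 stood at 409.8 and 295.1 CPM in members, and smooth muscle nuclei had more of it, at 965.5 and 845.5 CPM. The part of free or smooth muscle RNA in its level in members was not tested.

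The BMP pathway list held 26 genes, of which 18 passed the filter, 3 were called higher and none lower in members, with a median log2 ratio of 0.20 for Female and 0.16 for Male nuclei. Of these 18, 12 lay above 0 and 6 below it in both libraries, beside 40.0% and 45.3% of all genes above 0 and 0.795% of all genes called higher. Among ligands, Bmp6 was set by the rule, and Bmp4 was given beforehand as a marker of these nuclei, so neither call is independent. Bmp4 stood at 1433 CPM in Female and 1390 CPM in Male members, against 512.6 and 445.1 CPM in other endothelial nuclei, a log2 ratio of 1.47 and 1.63. Bmp4 was found in 87.1% and 87.4% of members, against 52.9% and 51.4% of other endothelial nuclei. Within these it was found in 64.1% and 67.2% of C sum and 58.8% and 55.9% of B sum nuclei. Bmp2, Bmp5 and Bmp7 did not pass the filter and had at most 2.72 CPM in members of either library. Among receptors, no gene was called: Eng stood at 560.0 and 514.3 CPM in members, against 291.4 and 252.5 CPM, past 2-fold in the Male library alone, Acvr1 at 479.8 and 412.0 CPM, against 358.5 and 276.6 CPM, and Bmpr2 at 749.4 and 678.2 CPM, against 656.3 and 579.8 CPM. Among inhibitors, Smad6, an intracellular brake on BMP signals, stood at 945.5 and 726.6 CPM in members, against 414.3 and 317.3 CPM, with a log2 ratio of 1.18 in each library. Smad7 stood at 326.6 and 286.6 CPM, against 236.2 and 188.3 CPM. The target gene Id1 lay the other way, at 29.8 and 24.9 CPM in members against 45.1 and 44.9 CPM, while Id2 stood at 72.9 and 56.3 CPM against 50.1 and 33.7 CPM, neither of them called. Of the secreted modulators on the list, only Bmper passed the filter, at 5.25 and 11.6 CPM in members against 10.4 and 23.1 CPM. Chrd stood at 3.67 and 6.92 CPM in members and Chrdl1 at 5.10 and 4.92 CPM. Nog had 1 UMI in Female and 0 in Male members, and Grem1 had 0 in both, where 0 allows up to 3 UMIs.

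The neuregulin and ErbB list held 17 genes, of which 9 passed the filter and only Nrg1 was called, which the rule had fixed because Nrg1 is in the A sum. The list median was -0.11 for Female and -0.20 for Male nuclei. The mean of these medians turned positive, to 0.14, against B and C sum nuclei alone, and was 0.0037 with Bmp6 left out of the A sum. Erbb4 stood at 163.5 CPM in Female and 142.9 CPM in Male members, against 176.4 and 136.4 CPM in other endothelial nuclei. The sheddase gene Adam10 stood at 290.8 and 276.0 CPM, against 346.5 and 321.0 CPM. Of the endothelin and angiotensin list, 3 of 12 genes passed the filter and Edn1 alone was called, again a gene of the A sum. No gene outside the rule was called in either list. Ece1, which cleaves the endothelin precursor, stood at 522.7 and 709.0 CPM in members against 384.1 and 512.4 CPM, and Ace, the angiotensin-converting enzyme, at 413.6 and 464.9 CPM against 322.3 and 328.5 CPM. In other lists Thbs1 and the coagulation factor gene F8 were called higher of 11 coagulation genes tested, Ddah1, which degrades an inhibitor of nitric oxide synthase, of 10 nitric oxide and prostanoid genes, Ctgf of 16 TGF-β genes, and Thbs1 and Cyr61 of 25 matrix genes. Over all genes tested 0.795% were called higher. Thbs1 counts in both the coagulation and the matrix list and was given beforehand as a marker of these nuclei. F8 stood at 48.8 and 49.4 CPM in members, against 17.8 and 13.2 CPM, and overlaps Fundc2. Fbln5, an elastic fibre protein, was past 2-fold in the Female library alone, at 327.6 CPM in Female and 217.5 CPM in Male members, against 132.5 and 112.6 CPM.

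No gene of the arterial, venous or capillary lists was called, beside 0.795% of all genes called higher and 1.59% called lower. At these shares lists this short can well hold no call, so nothing is read from it. Of 11 arterial genes, 9 passed the filter, and 7 lay above 0 and 2 below it in both libraries. The arterial median was 0.33 for Female and 0.35 for Male nuclei. Over all genes, 40.0% (Female) and 45.3% (Male) lay above 0. Gja4, a gap junction protein, stood at 103.4 and 103.5 CPM in members, against 59.4 and 67.9 CPM in other endothelial nuclei, and Efnb2 at 288.3 and 230.6 CPM, against 175.9 and 148.0 CPM. The 3 venous genes that passed lay below 0 in both libraries, Nr2f2 at 14.4 and 17.1 CPM in members against 36.8 and 35.6 CPM. Smooth muscle nuclei had more Nr2f2, at 80.7 and 64.1 CPM. The capillary list, with 5 of 12 genes tested, had a median of -0.65 and -0.43. Its sign changed, with a mean over the libraries of 0.17, both when only B and C sum nuclei served for comparison and when Bmp6 was left out of the A sum. Of 12 genes known to respond to blood flow that passed the filter, only Piezo2 was called, beside 1.59% of all genes called lower. It stood at 6.30 and 6.73 CPM in members against 22.2 and 29.3 CPM. Klf2 stood at 64.9 and 70.7 CPM in members against 135.7 and 134.0 CPM, past 2-fold in the Female library alone, and Klf4 at 61.0 and 65.7 CPM against 119.5 and 126.0 CPM.

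Genes lower in members included 2 kinds. Ptn, the growth factor pleiotrophin, stood at 1.05 CPM in Female and 2.07 CPM in Male members, against 31.5 and 53.0 CPM in other endothelial nuclei, and reached 39.2 and 73.2 CPM in B sum nuclei. Galnt18, a glycosyltransferase, stood at 34.6 and 62.5 CPM, against 208.2 and 344.4 CPM. The cell adhesion gene Cdh11 stood at 24.1 and 37.5 CPM, against 104.3 and 169.0 CPM. Ifitm10, Sez6l and Ccdc39 were the other genes of this kind, with log2 ratios between -1.98 and -1.84, and each was highest in B sum nuclei among the endothelial groups. Smaller calls from the pathway lists were Lef1 and Dkk2 of 15 Wnt genes tested and Sema3d and Slit2 of 21 guidance genes. Foxp2 was called of 27 transcription factor genes, and the lipoprotein receptor gene Lrp1 of 11 lipid handling genes. Over all genes tested 1.59% were called lower, and the single calls of Foxp2 and Lrp1 are not read as results about their lists. Dkk2, a Wnt modulator, stood at 14.0 and 16.5 CPM in members, against 93.3 and 57.5 CPM in other endothelial nuclei.

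The second kind were genes of lymphocytes and lymphatic vessels, Bank1, Ighm, Igkc, Skap1, Ikzf3 and Mmrn1. Bank1, a B cell gene, stood at 5.40 CPM in Female and 5.43 CPM in Male members, against 115.5 and 50.8 CPM in other endothelial nuclei, and reached 423.0 and 160.2 CPM in those assigned to neither the B nor the C sum. The summed level of the 4 B cell markers was 7.20 and 7.25 CPM in members, against 183.2 and 77.3 CPM. That of the 4 T and NK cell markers was 20.6 and 29.5 CPM in members, against 78.4 and 114.2 CPM. When only B and C sum nuclei served for comparison, none of these 6 genes was past 2-fold, and Igkc and Mmrn1 changed sign. Of the lymphatic list, Reln and Mmrn1 were called lower, and the rule itself kept out members with a Prox1 UMI. Fibroblast markers were lower than in all other endothelial nuclei combined, with Pdgfra, Col1a1 and C7 called of 7 tested, beside 1.59% of all genes called lower. The summed level of the 8 fibroblast markers was 405.0 and 571.5 CPM in members, against 562.2 and 993.0 CPM. In B sum nuclei this sum was 338.7 and 568.6 CPM, in C sum nuclei 439.2 and 517.3 CPM, and in unassigned endothelial nuclei 1105 and 2170 CPM, so members did not lie below both the B and the C sum nuclei in either library.

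**Figure D3:**
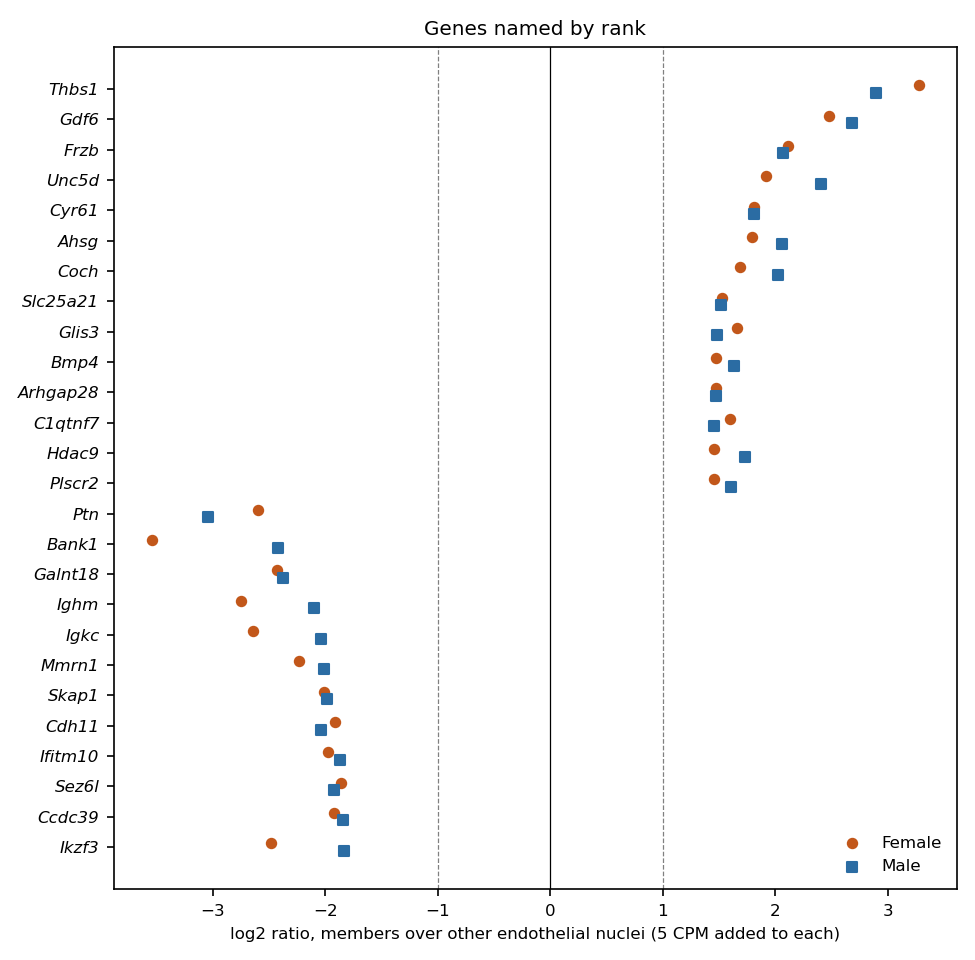
Log2 ratio of CPM (5 CPM added) in members over other endothelial nuclei (x axis) for 14 genes higher and 12 lower named by rank (y axis), with the Female library as circles and the Male library as squares; dashed lines mark 2-fold. The 2 libraries lie on the same side for all 26 genes because a gene was named only if both passed 2-fold the same way. Thbs1 lies at 3.27 and 2.90 at the upper end and Bank1 at -3.54 and -2.42 among the lower genes.

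Nuclei of the B sum and of the C sum were also set against the Bmp6-led nuclei one at a time. Against the 820 Female and 1577 Male B sum nuclei, 103 genes were called higher, 1.3% of 7903 tested, and 120 lower, 1.52%. Against the 443 Female and 555 Male C sum nuclei, 52 genes were called higher, 0.645% of 8061 tested, and 17 lower, 0.211%. Group sizes differ, and the counts were not compared by a test. Levels of the leading genes lay closer to those of members in C sum nuclei for some genes, as with Edn1 at 156.4 CPM in Female and 124.4 CPM in Male C sum nuclei and at 67.4 and 40.1 CPM in B sum nuclei. For Nrg1 both groups were low, at 14.1 and 13.05 CPM in C sum nuclei and 15.6 and 25.2 CPM in B sum nuclei.

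The sexes were compared within the Bmp6-led nuclei, the Female over the Male library, each a single pool. Members made up 65.9% of Female endothelial nuclei (3507 of 5321, exact interval 64.6% to 67.2%) and 55.2% of Male ones (3900 of 7066, 54.0% to 56.4%), a difference of 10.7 percentage points (8.99 to 12.4, counting error only). Bmp6, the main part of the A sum, was itself higher in Female members, with a plain log2 ratio of 0.28 (0.27 to 0.30). With Bmp6 left out of the A sum, the shares were 23.6% and 20.6%, a difference of 3.05 points. As a share of all barcodes with at least 300 genes, members were 18.6% of the Female and 18.9% of the Male library.

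Few genes differed by 2-fold between the sexes in members: 4 of 7513 genes tested were higher in the Female library, 0.0532%, with Xist among them, and 20 lower, 0.266%, with Uty, Ddx3y, Eif2s3y and Kdm5d of the Y chromosome among them, and the median over all genes was -0.02. Among the marker genes, Nrg1 stood at 437.5 CPM in Female and 657.8 CPM in Male members, with a plain log2 ratio of -0.59 (-0.63 to -0.54), and Thbs1 at 227.7 and 348.0 CPM, with -0.61 (-0.68 to -0.55), neither of which reached 2-fold. Emcn, Edn1 and Bmp4 had plain log2 ratios of 0.01, 0.12 and 0.04. Within sub-clusters 0 to 4, Nrg1 was lower in Female than in Male nuclei each time, as at 1125 against 1865 CPM in sub-cluster 2, and in sub-cluster 5 it stood at 1707 against 2055 CPM.

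Bcan, the proteoglycan brevican, was the gene furthest apart in the Female direction after Xist, with 271 UMIs (20.3 CPM) in Female members and 4 UMIs (0.259 CPM) in Male members. Female Bcan was uneven across sub-clusters, at 47.1 CPM in sub-cluster 1, 35.8 CPM in sub-cluster 5 and 6.65 CPM in sub-cluster 0, and Male levels were at most 0.712 CPM in sub-clusters 0 to 5. Kif5c, a kinesin motor, stood at 32.5 CPM in Female and 7.25 CPM in Male members. Acss2, an acetyl-CoA synthetase, stood at 95.6 and 41.9 CPM, but non-endothelial barcodes had 425.1 and 154.0 CPM, and without doublets its log2 ratio was 0.25. In the Male direction, Zbtb16, a zinc finger gene known to be induced by glucocorticoids, stood at 276.1 CPM in Female and 743.6 CPM in Male members, and Fkbp5, another glucocorticoid target, at 43.9 and 160.8 CPM. The same genes differed alike outside the members, Zbtb16 at 297.8 CPM in Female and 771.3 CPM in Male other endothelial nuclei and Fkbp5 at 68.7 and 274.0 CPM. C7 and Csmd1 stood at 8.25 and 9.74 CPM in Female and 72.1 and 38.1 CPM in Male members, but over both libraries they reached 601.6 and 357.4 CPM in sub-cluster 6, the fibroblast-gene sub-cluster rich in called doublets, against 6.21 and 3.37 CPM in the rest of the members. Kif26b, C4b, Sdk1, Sfrp2 and Cmah were the other genes named in this direction, with log2 ratios between -1.67 and -1.08. With 20 CPM added in place of 5, Bcan, Kif5c, Acss2, Csmd1, C4b, Sdk1, Sfrp2 and Cmah were no longer past 2-fold. C4b has a near-identical copy, C4a, so its counts are uncertain.

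**Figure D4:**
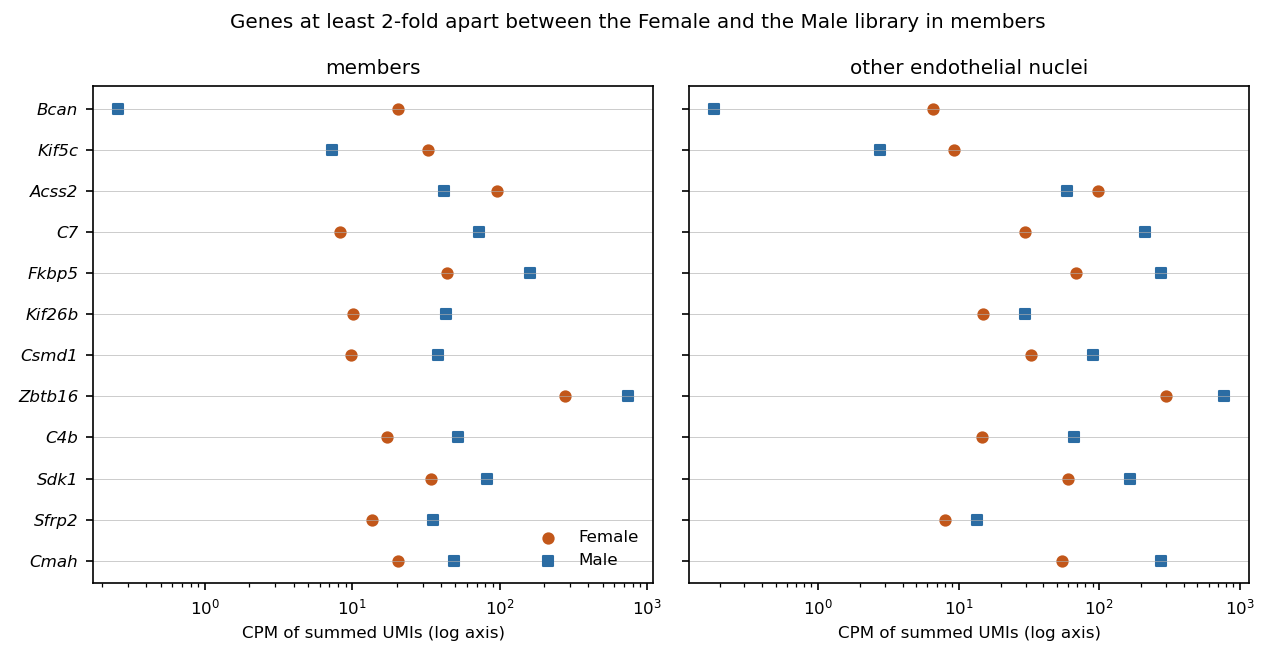
CPM of summed UMIs (log axis) of 12 genes named by rank for a 2-fold difference between the sexes in members, in members (left panel) and in other endothelial nuclei (right panel), with the Female library as circles and the Male library as squares. Female lies right of Male for Bcan, Kif5c and Acss2 in both panels, and left of it for the other 9 genes.

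The reporter was not part of the rule. GFP made up 15.6% of GFP and tdTomato UMIs in Female members (699 of GFP and 3782 of tdTomato, exact interval 14.5% to 16.7%) and 17.2% in Male members (935 and 4508, 16.2% to 18.2%). In other endothelial nuclei it made up 22.8% and 20.8%, so the difference was -7.18 percentage points (-9.31 to -5.09) in the Female and -3.64 points (-5.35 to -1.96) in the Male library, covering counting error only. Smooth muscle nuclei had 54.8% and 54.2%, B sum nuclei 21.1% and 18.6%, and C sum nuclei 18.3% and 16.2%, the last of these below Male members. Against B and C sum nuclei alone, the difference was -4.44 points for Female and -0.827 points for Male nuclei. Nuclei with GFP UMIs and no tdTomato UMI were 4.53% of Female and 5.95% of Male members, against 7.61% and 7.36% of other endothelial nuclei. Sub-clusters 0 to 5 had GFP shares between 12.9% and 17.6%, while sub-clusters 6 to 10, which carry many called doublets, had 12.1% to 40.1%. The share of reporter UMIs that free RNA or doublets gave was not tested.

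**Figure D5:**
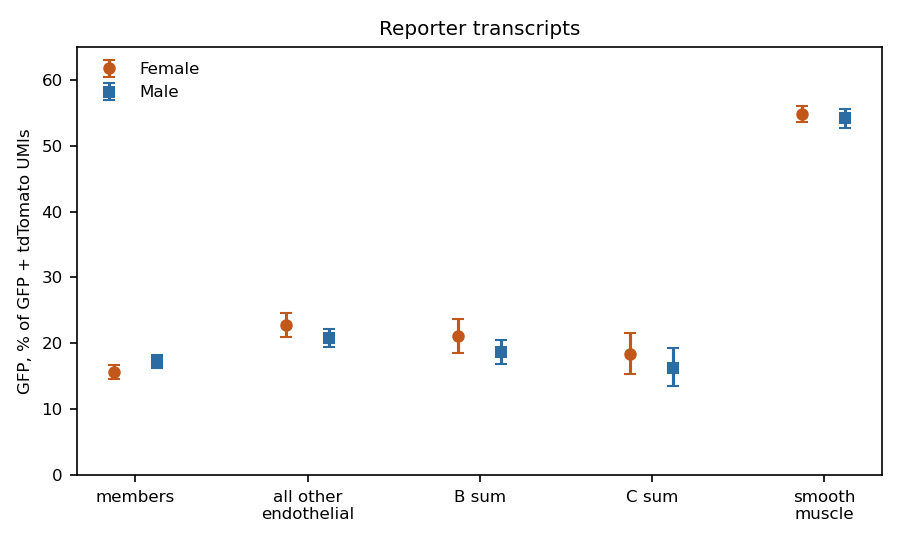
GFP UMIs as a percent of GFP and tdTomato UMIs (y axis) in members, all other endothelial nuclei, B sum, C sum and smooth muscle nuclei, with Female circles and Male squares; bars are 95% exact Clopper-Pearson intervals for counting error only. Members lie at 15.6% and 17.2%, below all other endothelial nuclei together and the smooth muscle nuclei at 54.8% and 54.2%, while Male C sum nuclei lie lower, at 16.2%.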

How the data were processed

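Per the file headers, UMI counts per gene and barcode for 54754 features were made with Cell Ranger 7.0.0 and deposited by the authors. The submitters' processing notes name GRCm38, STAR, Cell Ranger and Seurat 4.4.0, and the annotation version, the strand setting and whether introns were counted were not given in the sources used here. Members and gene lists were chosen with earlier results of these data known. Sub-clustering, the A sum without Bmp6 and the removal of nuclei with immune or lymphatic UMIs were chosen after the data were seen. UMIs were summed per library and group and given as counts per 1000000 UMIs (CPM). Genes with at least 50 UMIs and 20 CPM on either side were compared as log2 ratios with 5 CPM added. The genes named by rank were up to 15 higher and 12 lower in members by the smaller of the library ratios, and up to 10 in each direction between the sexes. Intervals are 95% and cover counting error only. They are exact, except those of differences between 2 shares, which are Newcombe intervals from Wilson limits. Doublets were scored with Scrublet (expected rate 0.08) and kept. Members were clustered with Leiden in scanpy 1.11.5, leaving out sex-linked, mitochondrial, ribosomal, haemoglobin and reporter genes and those 2-fold apart between libraries. Sums, ratios and intervals came from scipy 1.17.1, numpy 2.4.6 and pandas 2.3.3 under Python 3.11.15, plots from matplotlib 3.10.9, and the ratios were tested on simulated data. Gene positions were matched by Ensembl ID and promoter windows by symbol, with 6 of 10 genes found; Nrg1, Otogl, Thbs1 and Gdf6 were without one. One gene named by the rank rule is not reported here.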

Additional observations from a re-analysis of the deposited data

How the results depend on the processing

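Directions of the named genes held in all alternatives run except Igkc (0.00442) and Mmrn1 (0.099, mean log2), which changed sign when only B and C sum nuclei served for comparison. Genes at least 2-fold lower in members, 128 as reported, numbered 276 without doublets (127 shared), 81 with Bmp6 left out of the A sum (51 shared), 36 with 20 CPM added, 69 with a stricter gene filter and 83 against B and C sum nuclei (47 shared). Genes higher, 64 as reported, numbered 40 with 20 CPM added and 55 with Bmp6 left out of the A sum (42 shared). Medians of the capillary, neuregulin and lipid handling lists changed sign with Bmp6 left out (0.17, 0.0037 and 0.064) and against B and C sum nuclei (0.17, 0.14 and 0.17). The TGF-β median also did so in both. With Bmp6 left out the endocardial, Notch and guidance medians changed sign, and against B and C sum nuclei the coagulation median. The endothelin and angiotensin median went from 0.45 to -0.27 with no CPM minimum. Further list medians, those between the sexes included, changed sign in other alternatives. With the Female library alone the counts were 84 higher and 181 lower, and with the Male library alone 95 and 192. Genes higher in Female members, 4 as reported, numbered 7 with Bmp6 left out, 7 with 1 CPM added, 1 with 20 CPM added and 2 with the stricter filter. Genes lower in Female members, 20 as reported, numbered 34 with 1 CPM added, 10 with 20 CPM added and 13 with the stricter filter. The Female minus Male share of members was 3.05 points with Bmp6 left out. The GFP difference was -3.75 points in the Female library with Bmp6 left out, and -4.44 for Female and -0.827 for Male nuclei against B and C sum nuclei. The cause of these shifts was not tested. No paired analysis was possible because each sex has 1 library and the replicate numbers are not from the labels. With 1 library per sex, differences between animals, pools and libraries cannot be told apart from sex.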
